A study of Mus musculus with 20 samples.

Results

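B cells and naive T cells are lymphocytes of the adaptive immune system. They are compared here over 6 arrays: 2 arrays of B cells and 4 of naive T cells (2 of CD4 and 2 of CD8 cells), of 20 arrays in the series. The members were chosen by their labels, and the naive T level is the mean of the CD4 and CD8 group means. The series profiled 10 blood cell types of wild-type C57Bl/6 CD45.1 mice, labelled as females aged 12 to 14 weeks, on the Affymetrix Moe430 v 2.0 array. Each array held RNA of 25000 to 50000 cells sorted by flow cytometry, with 4 samples pooled, which was copied in a pair of in vitro transcription rounds before hybridisation. The labels name no tissue and no sorting antibody for these cells, give no treatment for them, and give 1 naive CD8 array the title CD48+ while its source name reads CD8+. The series' design calls the arrays biological replicates, and beyond the pooling nothing ties an array to particular animals.

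A B cell reads antigen with membrane immunoglobulin, whose signal passes through the paired chains Cd79a and Cd79b. A T cell reads peptide on MHC molecules with the T-cell receptor, whose signal passes through the CD3 chains and Cd247. In both, Src-family kinases phosphorylate tyrosine motifs of the receptor chains, a tandem-SH2 kinase docks there, and an adaptor gathers a phospholipase C, an exchange factor for Ras and a protein kinase C. The lineages use different genes of the same families for most of these steps. B cells also present antigen on MHC class II, move to follicles through Cxcr5 and depend on the cytokine BAFF, whereas naive T cells depend on IL-7.

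Values are deposited log2 expression values, so a difference of 1 is 2-fold. Differences (B cells minus naive T cells) come with the standard error (SE) of a limma fit over all 20 arrays, with Benjamini-Hochberg adjusted p-values (9810 genes). A gene was called higher or lower in B cells at an adjusted p under 0.05 and a difference of at least 2-fold. The 6 arrays had 7708 to 7903 genes above a log2 value of 5. Replicate arrays correlated at 0.988 for B cells, 0.970 for CD4 and 0.982 for CD8 cells, against 0.878 to 0.886 between a B-cell and a T-cell array (across genes, which are not independent replicates). Replicates lay over 2-fold apart for 445 genes in B cells, 1326 in CD4 and 643 in CD8 cells.

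Markers set several arrays apart. Cd3e, a CD3 chain, read 4.13 and 4.01 in the B-cell arrays, 8.71 and 8.82 in naive CD4 and 9.09 and 8.98 in naive CD8 arrays. Ms4a1, which encodes CD20 of B cells, read 8.32 and 7.16 in naive CD4, 8.58 and 8.07 in naive CD8 and 15.15 and 15.30 in B-cell arrays. All 13 tested B cell markers were higher in B cells (median difference 7.19) and 11 of 12 T cell markers lower (median -7.35). A gene was tested only if at least 2 of the 20 arrays exceeded 5. A marker of B cells alone was thus tested only where they were high, and Pax5 was left out. Counted with no filter, 13 of the 14 B cell markers on the array were above 5 in each B-cell array. All 12 T cell markers were above 5 in each naive T cell array. B cell markers were not at the floor in the T cell arrays: 6 to 9 of the 14 on the array were above 5 there, with a mean of 5.47 to 5.87 against 12.15 and 11.93 in the B-cell arrays. Of the 12 T cell markers, 3 and 2 were above 5 in the B-cell arrays. The Y-linked Eif2s3y read 3.23 and 3.21 in the B-cell arrays, 12.84 and 3.23 in naive CD4 and 11.76 and 3.36 in naive CD8 arrays. Xist, the RNA of the inactive X chromosome, read 4.28 and 10.55 in naive CD4, 9.88 and 10.47 in naive CD8 and 12.37 and 12.50 in B-cell arrays. The naive arrays numbered 1 were thus high in a Y-linked gene although the labels give female mice, and without both of them 1424 genes were called, of which 1296 were among the 1573 called with all arrays. S100a8, a neutrophil gene, read 5.97 and 3.42 in the B-cell arrays, 3.45 and 10.75 in naive CD4 and 3.32 and 6.49 in naive CD8 arrays, high in naive CD4 array 2, where 13 of 20 myeloid markers were above 5 against 6 to 9 in the other 5 arrays. Without that array 1542 genes were called, 1396 of them also called with it. Gzma, a granzyme of cytotoxic cells, read 4.57 and 3.52 in naive CD4, 12.85 and 9.64 in naive CD8 and 5.65 and 5.29 in B-cell arrays, and the NK cell markers averaged 7.69 and 6.90 in the naive CD8 arrays, 5.29 and 5.33 in the naive CD4 and 3.99 and 3.86 in the B-cell arrays. The part of these other transcripts in the results below was not tested beyond leaving out arrays.

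Of 9810 genes tested, 810 (8.26%) were higher and 763 (7.78%) lower in B cells than in naive T cells, and the median difference over all genes was -0.03. The B-cell arrays lay above all 4 naive T cell arrays for 1956 genes (19.9%) and below all of them for 2372 (24.2%). Differences of 16-fold or more numbered 144 in favour of B cells and 156 in favour of T cells. Against naive CD4 T cells alone, 752 genes (7.67%) were higher and 658 (6.71%) lower, and against naive CD8 T cells alone 703 (7.17%) and 770 (7.85%). These comparisons share the B-cell arrays. In sorted pools such as these, fewer cells that express a gene and less of its RNA per cell cannot be told apart.

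**Figure D1:**
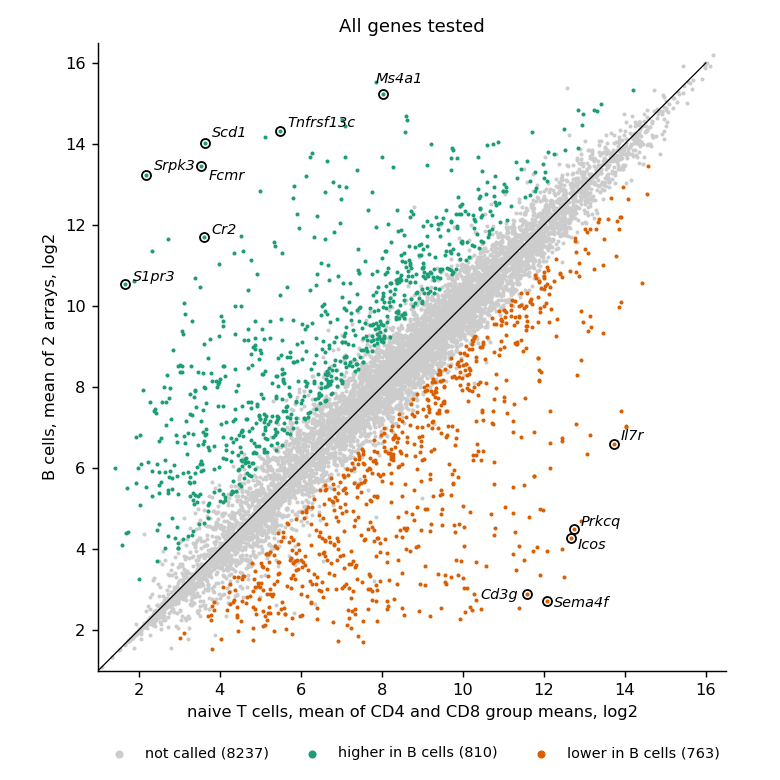
Mean log2 expression of the 9810 genes tested in B cells (2 arrays, vertical axis) against the naive T level (mean of the CD4 and CD8 group means, horizontal axis), 1 point a gene, with the line of equal levels. Green points are the 810 genes called higher and orange points the 763 called lower in B cells, and circled genes are described in the text.

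The receptor of B cells and the surface proteins that tune it were higher in B cells for 18 of 20 tested genes, none was lower, and their median difference was 4.96 against -0.03 for all genes. Cd79b, a signalling chain of the receptor, read 14.53 and 14.37 in the B-cell arrays, 6.45 and 4.84 in naive CD4 and 8.55 and 8.56 in naive CD8 arrays. The difference was 7.35 ± 0.76 (SE, adjusted p = 7.83e-06). Its partner Cd79a read 2.56 and 2.51 in naive CD4, 2.53 and 2.54 in naive CD8 and 6.85 and 6.64 in B-cell arrays, low in every naive T cell array, with a difference of 4.21 ± 0.15 (SE, adjusted p = 2.33e-10). B-cell levels were at least 5 log2 units above the highest T cell array for Cd79b and about 4 for Cd79a, with no overlap.

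Fcmr, the Fc receptor for IgM, read 13.62 and 13.30 in the B-cell arrays, 3.54 and 3.50 in naive CD4 and 3.65 and 3.52 in naive CD8 arrays. All 4 T cell arrays sat within 0.15 of each other, and the difference was 9.91 ± 0.25 (SE, adjusted p = 1.17e-11). Fcer2a (CD23), the low-affinity IgE receptor of follicular B cells, read 5.01 and 4.83 in naive CD4, 5.12 and 5.51 in naive CD8 and 14.20 and 14.11 in B-cell arrays. For Fcer2a the B-cell arrays were above all 4 T cell arrays, and the difference was 9.04 ± 0.42 (SE, adjusted p = 2.16e-09). Cr2, the complement receptor that joins antigen to the B-cell co-receptor, read 11.62 and 11.77 in the B-cell arrays, 3.36 and 3.33 in naive CD4 and 3.34 and 4.42 in naive CD8 arrays. Cr2 differed by 8.08 ± 0.24 (SE, adjusted p = 6.03e-11), both B-cell arrays lying above every T cell array. These 3 receptors were among the 15 genes with the largest differences in favour of B cells.

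Inhibitory receptors of the B-cell surface were higher as well. Cd22, which recruits phosphatases to the receptor, read 6.74 and 7.62 in naive CD4, 6.80 and 6.93 in naive CD8 and 14.69 and 14.48 in B-cell arrays. For Cd22 the B-cell arrays were above all 4 T cell arrays, and the difference was 7.56 ± 0.26 (SE, adjusted p = 1.94e-10). Siglecg, a related sialic-acid receptor, differed by 5.83 ± 0.33 (SE, adjusted p = 1.85e-08). Fcgr2b, the inhibitory IgG receptor, read 10.66 and 10.36 in the B-cell arrays, 6.33 and 5.91 in naive CD4 and 6.29 and 6.98 in naive CD8 arrays. Fcgr2b differed by 4.13 ± 0.36 (SE, adjusted p = 1.45e-06), both B-cell arrays lying above every T cell array. Cd72 differed by 3.93 ± 0.69 (SE, adjusted p = 9.63e-04). The T cell arrays were at middling levels for several surface genes. Cd72, for example, read 10.87 and 11.11 in naive CD8 and 7.99 and 8.90 in naive CD4 arrays, against 13.82 and 13.47 in B cells.

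The 2 genes that were not called were Ighm and Ifitm1. Ifitm1 ran the other way, with a difference of -1.07 and both B-cell arrays below all 4 T cell arrays. Over the other settings its difference lay between -1.94 and -0.19. The probe set taken for Ighm, the IgM heavy chain, read 12.83 and 12.90 in naive CD4, 12.92 and 12.91 in naive CD8 and 14.10 and 13.65 in B-cell arrays. For Ighm the B-cell arrays were above all 4 T cell arrays, and the difference was 0.99 ± 0.57 (SE, adjusted p = 0.297). Another probe set for it read 10.81 to 11.47 in the T cell arrays with a mean of 13.91 in B cells and was called (2.66 ± 0.43 SE, adjusted p = 5.60e-04). Of 24 immunoglobulin probe sets above the filter, 17 were higher in B cells and 7 were not called, against 1940 higher and 1214 lower of all 18726 probe sets tested. Probe sets for the lambda light chain gave clear separation, as with Iglv1 (8.80 in B cells against 3.30 in naive T cells, a difference of 5.50 ± 0.19 SE). Igha, the IgA heavy chain, was not called: 1 probe set averaged 8.26 in B cells but read 10.51 and 7.54 in the naive CD4 arrays. Probe sets for immunoglobulin segments can share sequence, so the single segments are uncertain.

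**Figure D2:**
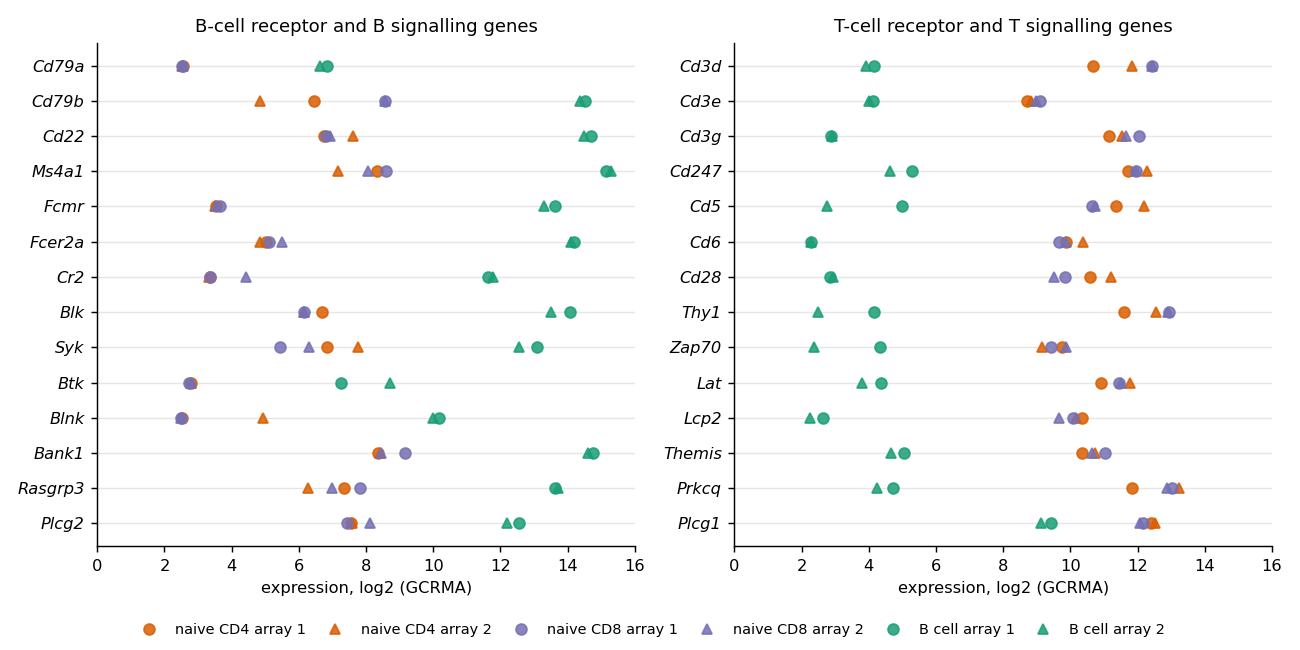
Log2 expression in each of the 6 arrays (horizontal axis) for 14 B-cell (left) and 14 T-cell (right) receptor and signalling genes. Each symbol is 1 array: circles are replicate 1 and triangles replicate 2, green B cells, orange naive CD4 and purple naive CD8 T cells. For all 28 genes the B-cell arrays lie outside the range of the T cell arrays. The genes were chosen with earlier results known, and listed genes that overlap, such as Cd2 and Vav1, are not drawn. Over all genes tested the B-cell arrays lay above every T cell array for 19.9% and below for 24.2%.

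Downstream of the B-cell receptor, 21 of 28 signalling genes were higher in B cells, 2 were lower and the median difference was 2.07. Blk, a Src-family kinase of B cells, read 14.06 and 13.50 in the B-cell arrays, 6.69 and 6.14 in naive CD4 and 6.15 and 6.16 in naive CD8 arrays. Blk differed by 7.50 ± 0.35 (SE, adjusted p = 2.92e-09), both B-cell arrays lying above every T cell array. Syk, the tandem-SH2 kinase that docks on Cd79a and Cd79b, read 6.85 and 7.76 in naive CD4, 5.43 and 6.30 in naive CD8 and 13.10 and 12.54 in B-cell arrays. For Syk the B-cell arrays were above all 4 T cell arrays, and the difference was 6.24 ± 0.38 (SE, adjusted p = 3.84e-08). Btk, the Tec-family kinase lost in X-linked agammaglobulinaemia, read 7.24 and 8.70 in the B-cell arrays, 2.79 and 2.78 in naive CD4 and 2.73 and 2.80 in naive CD8 arrays. Btk differed by 5.20 ± 0.60 (SE, adjusted p = 2.31e-05), both B-cell arrays lying above every T cell array. The T cell arrays were all under 2.81 for Btk.

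Blnk, the scaffold that brings Btk to phospholipase C, read 2.53 and 4.93 in naive CD4, 2.49 and 2.49 in naive CD8 and 10.17 and 9.98 in B-cell arrays, with naive CD4 array 2 above the other T cell arrays. For Blnk the B-cell arrays were above all 4 T cell arrays, and the difference was 6.97 ± 0.56 (SE, adjusted p = 6.32e-07). Plcg2, the phospholipase itself, differed by 4.70 ± 0.29 (SE, adjusted p = 3.73e-08), Rasgrp3, an exchange factor for Ras, by 6.57 ± 0.63 (SE, adjusted p = 3.90e-06) and the adaptor Bank1 by 6.09 ± 0.84 (SE, adjusted p = 1.15e-04). Bank1 was at 8.35 or more in every T cell array. Smaller differences were found in Prkcb (2.00 ± 0.39 SE, adjusted p = 0.00217), which links the receptor to NF-kappaB, and in the phosphatase gene Inpp5d, which encodes SHIP (1.45 ± 0.17 SE, adjusted p = 3.18e-05). Inpp5d lost its call where all its probe sets were combined (0.66).

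The members that ran the other way were Pik3cd, a PI3-kinase subunit used in both lineages, and the phosphatase gene Ptpn22. Pik3cd read 8.70 and 8.46 in the B-cell arrays, 9.53 and 10.15 in naive CD4 and 10.35 and 10.28 in naive CD8 arrays. Pik3cd differed by -1.50 ± 0.22 (SE, adjusted p = 1.91e-04), both B-cell arrays lying below every T cell array. For Ptpn22 the B-cell arrays were below all 4 T cell arrays, and the difference was -1.52 ± 0.28 (SE, adjusted p = 0.00123). Vav1, the haematopoietic exchange factor, read 10.70 and 11.45 in naive CD4, 11.13 and 11.09 in naive CD8 and 11.31 and 11.09 in B-cell arrays and differed by 0.11 ± 0.36 (SE, adjusted p = 0.934), with overlapping arrays.

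In the mirror image, 15 of 19 tested genes of the T-cell receptor and its co-receptors were lower in B cells, none was higher and the median difference was -6.45. Cd3g read 2.88 and 2.89 in the B-cell arrays, 11.15 and 11.54 in naive CD4 and 12.03 and 11.64 in naive CD8 arrays. Cd3g differed by -8.71 ± 0.35 (SE, adjusted p = 6.03e-10), both B-cell arrays lying below every T cell array. Cd3d read 10.68 and 11.84 in naive CD4, 12.43 and 12.42 in naive CD8 and 4.16 and 3.92 in B-cell arrays and differed by -7.80 ± 0.30 (SE, adjusted p = 4.34e-10), and for Cd3e the difference was -4.83 ± 0.22 (SE, adjusted p = 1.65e-09). Cd247, the zeta chain, differed by -7.01 ± 0.34 (SE, adjusted p = 4.06e-09). The B-cell arrays were under 5.3 for all 4 chains, while every T cell array was at 8.71 or more.

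Thy1, a surface glycoprotein of mouse T cells, read 4.15 and 2.49 in the B-cell arrays, 11.59 and 12.55 in naive CD4 and 12.92 and 12.91 in naive CD8 arrays. For Thy1 the B-cell arrays were below all 4 T cell arrays, and the difference was -9.17 ± 0.38 (SE, adjusted p = 7.90e-10). Cd28, the costimulatory receptor for B7, read 10.59 and 11.21 in naive CD4, 9.83 and 9.50 in naive CD8 and 2.85 and 2.92 in B-cell arrays. Cd28 differed by -7.40 ± 0.57 (SE, adjusted p = 4.05e-07), both B-cell arrays lying below every T cell array. Icos, its inducible relative, read 2.79 and 5.74 in the B-cell arrays, 12.99 and 13.15 in naive CD4 and 12.26 and 12.22 in naive CD8 arrays, with the B-cell arrays apart from each other. For Icos the B-cell arrays were below all 4 T cell arrays, and the difference was -8.39 ± 0.86 (SE, adjusted p = 7.65e-06). With all its probe sets combined Icos differed by -0.41 and was not called. Cd5 and Cd6, scavenger-receptor relatives that set the threshold of T-cell signalling, differed by -7.36 ± 0.48 (SE, adjusted p = 7.09e-08) and -7.67 ± 0.19 (SE, adjusted p = 1.02e-11). Cd5 also marks B-1 cells, and its B-cell arrays lay over 2 log2 units apart, at 2.74 in array 2 and higher in array 1.

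Cd8a and Cd8b1, the CD8 co-receptor chains, were called lower, but the naive CD4 arrays overlapped or lay near the B-cell arrays: Cd8a read 4.58 and 5.43 in naive CD4, 13.44 and 13.29 in naive CD8 and 4.49 and 4.38 in B-cell arrays. Cd8a differed by -4.75 ± 0.27 (SE, adjusted p = 1.94e-08), both B-cell arrays lying below every T cell array. Cd8b1 differed by -4.66 ± 0.23 (SE, adjusted p = 4.14e-09), and the groups overlapped. Cd2, an adhesion receptor of T cells, read 10.48 and 9.97 in the B-cell arrays, 9.76 and 10.85 in naive CD4 and 10.93 and 11.04 in naive CD8 arrays. Cd2 differed by -0.42 ± 0.30 (SE, adjusted p = 0.425), and the groups overlapped. Of the other members not called, Slamf6 differed by -1.13 ± 0.74 (SE, adjusted p = 0.366). T-cell receptor segment probe sets were lower in B cells in 8 of 9 cases, for example Trbv1, with a mean of 7.04 in B cells against 14.02 in naive T cells (-6.99 ± 0.42 SE, adjusted p = 4.92e-08).

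Of 25 tested genes of T-cell receptor signalling 15 were lower in B cells, none was higher and the median difference was -2.40. Zap70, the tandem-SH2 kinase of T cells, read 9.76 and 9.14 in naive CD4, 9.42 and 9.88 in naive CD8 and 4.33 and 2.37 in B-cell arrays. For Zap70 the B-cell arrays were below all 4 T cell arrays, and the difference was -6.20 ± 0.47 (SE, adjusted p = 3.63e-07). Lat, the membrane scaffold that Zap70 phosphorylates, read 4.36 and 3.79 in the B-cell arrays, 10.92 and 11.77 in naive CD4 and 11.43 and 11.49 in naive CD8 arrays. Lat differed by -7.33 ± 0.33 (SE, adjusted p = 1.77e-09), both B-cell arrays lying below every T cell array. Lcp2, which encodes SLP-76, read 10.35 and 10.16 in naive CD4, 10.07 and 9.65 in naive CD8 and 2.64 and 2.25 in B-cell arrays. For Lcp2 the B-cell arrays were below all 4 T cell arrays, and the difference was -7.61 ± 0.24 (SE, adjusted p = 9.51e-11). Prkcq, protein kinase C theta of the immune synapse, read 4.73 and 4.25 in the B-cell arrays, 11.84 and 13.23 in naive CD4 and 13.03 and 12.86 in naive CD8 arrays. Prkcq differed by -8.25 ± 0.33 (SE, adjusted p = 6.03e-10), both B-cell arrays lying below every T cell array. In all 4 genes the B-cell arrays were at 4.73 or lower and the T cell arrays at 9.14 or higher. Themis, needed for thymocyte selection, differed by -5.83 ± 0.51 (SE, adjusted p = 1.56e-06), and the adaptor genes Fyb and Skap1 by -7.01 ± 0.28 (SE, adjusted p = 5.99e-10) and -6.29 ± 0.33 (SE, adjusted p = 8.13e-09).

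Not every gene of the T-cell list separated the lineages. The diacylglycerol kinase genes Dgka and Dgkz read 11.88 or more in every array, and the differences were -1.72 ± 0.44 (SE, adjusted p = 0.0136) and -0.92 ± 0.28 (SE, adjusted p = 0.0346), the second under the 2-fold needed for a call. Without B-cell array 1 or 2 the call of Dgka was lost (adjusted p = 0.0522 to 0.143). Rasgrp1, the Ras exchange factor of T cells, read 14.18 and 14.58 in naive CD4, 14.00 and 13.89 in naive CD8 and 13.12 and 13.08 in B-cell arrays. For Rasgrp1 the B-cell arrays were below all 4 T cell arrays, and the difference was -1.06 ± 0.62 (SE, adjusted p = 0.300). Fyn, a Src-family kinase, differed by -2.26 ± 0.70 (SE, adjusted p = 0.0401), and its call was lost on leaving out any 1 of the 6 arrays (adjusted p = 0.0707 to 0.228). Tec, a kinase related to Btk, was higher in both B-cell arrays (11.19 and 11.23 in the B-cell arrays, 8.19 and 8.59 in naive CD4 and 9.45 and 9.41 in naive CD8 arrays) without passing the test (2.30 ± 0.78 SE, adjusted p = 0.0589).

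In several gene families 1 member was higher and another lower in B cells. Syk differed by 6.24 and Zap70 by -6.20, and Plcg2 by 4.70 against -3.03 for Plcg1, the phospholipase of T cells. For the adaptors Blnk and Lcp2 the differences were 6.97 and -7.61. Rasgrp3 was higher by 6.57 while Rasgrp1, at -1.06, was not called, and Vav2 was higher (3.47 ± 0.82 SE, adjusted p = 0.00787) while Vav1 was not called. The call of Vav2 was lost without B-cell array 1 or 2 (adjusted p = 0.0626 to 0.0671). Plcg1 remained at 9.42 and 9.11 in the B-cell arrays, and Plcg2 at 7.43 to 8.13 in the T cell arrays, so neither phospholipase gene was at the floor in the other lineage. These pairs share their contrast and were listed with earlier results known.

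**Figure D3:**
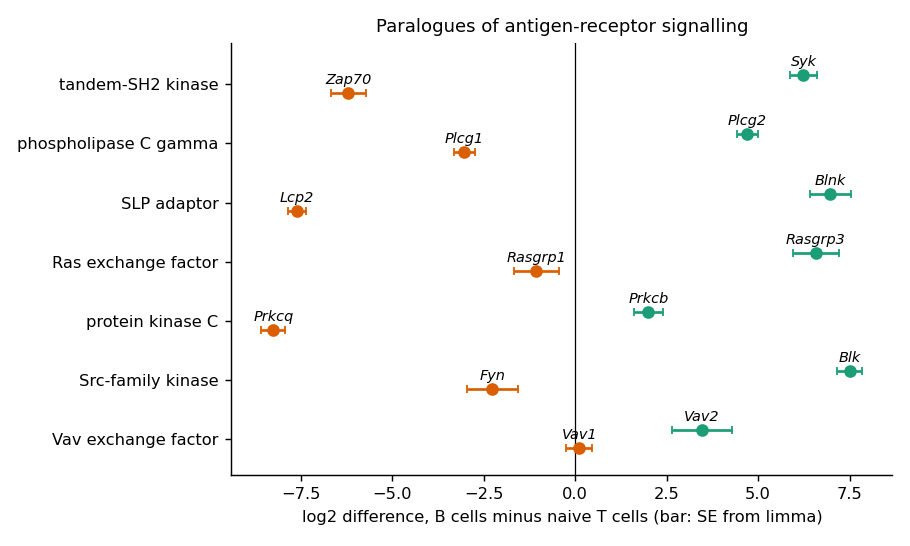
Log2 difference between B cells and naive T cells (horizontal axis) for 7 pairs of related signalling genes, with the SE of the limma fit as bars. Green points are the first gene of each pair, all 7 called higher in B cells, and orange points the second, of which Rasgrp1 and Vav1 were not called and the others were lower.

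MHC class II presentation was higher in B cells for 11 of 13 tested genes, none was lower and the median difference was 3.51. H2-DMb2, a chain of the peptide exchange factor H2-DM, read 6.72 and 6.61 in naive CD4, 4.94 and 6.24 in naive CD8 and 13.29 and 13.10 in B-cell arrays. H2-DMb2 differed by 7.07 ± 0.39 (SE, adjusted p = 1.57e-08), both B-cell arrays lying above every T cell array. H2-Eb2, an E-beta chain gene, read 9.71 and 9.15 in the B-cell arrays, 5.85 and 6.53 in naive CD4 and 3.52 and 4.29 in naive CD8 arrays. For H2-Eb2 the B-cell arrays were above all 4 T cell arrays, and the difference was 4.38 ± 0.25 (SE, adjusted p = 1.67e-08). H2-Eb1, the classical E-beta chain, read 9.65 and 10.81 in naive CD4, 10.31 and 11.09 in naive CD8 and 13.39 and 13.26 in B-cell arrays. H2-Eb1 differed by 2.86 ± 0.58 (SE, adjusted p = 0.00279), both B-cell arrays lying above every T cell array. H2-Oa, a chain of the H2-O inhibitor of H2-DM, read 10.82 and 10.30 in the B-cell arrays, 5.09 and 6.97 in naive CD4 and 7.82 and 8.30 in naive CD8 arrays. For H2-Oa the B-cell arrays were above all 4 T cell arrays, and the difference was 3.52 ± 0.54 (SE, adjusted p = 3.27e-04). The T cell arrays thus read class II genes well above the floor, and the source of these values was not tested.

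H2-Aa, the classical A-alpha chain, read 12.55 and 13.40 in naive CD4, 12.62 and 13.26 in naive CD8 and 14.77 and 14.70 in B-cell arrays, with a difference of 1.78 ± 0.55 (SE, adjusted p = 0.0381). That call was lost without B-cell array 1 or 2, naive CD4 array 1 or naive CD8 array 1, and with a different choice of its probe set (adjusted p = 0.0998 to 0.186 on leaving out an array). H2-Ab1, its beta partner, differed by 3.26 ± 0.82 (SE, adjusted p = 0.0126), and lost its call without B-cell array 1 or 2 (adjusted p = 0.0699 to 0.108). The ligase gene Marchf1, whose product lowers class II at the surface, differed by 5.05 ± 0.52 (SE, adjusted p = 7.03e-06) and the lysosomal reductase gene Ifi30 by 2.57 ± 0.44 (SE, adjusted p = 7.08e-04). Ctss, a protease that trims the invariant chain, was at 13.65 or more in all 6 arrays (0.77 ± 0.32 SE, adjusted p = 0.131).

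MHC class I presentation gave a different picture, with 0 of 14 higher, 2 lower and a median of -0.02. B2m, the shared light chain, read 14.73 and 14.88 in the B-cell arrays, 14.87 and 15.03 in naive CD4 and 14.68 and 14.83 in naive CD8 arrays. B2m differed by -0.05 ± 0.16 (SE, adjusted p = 0.936), and the groups overlapped. The 2 lower genes were Nlrc5, the class I transactivator (-1.29 ± 0.26 SE, adjusted p = 0.00265), and Erap1, which trims peptides (-1.49 ± 0.36 SE, adjusted p = 0.00949). Erap1 lost its call without B-cell array 1 (adjusted p = 0.118).

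Class II promoters hold a set of short elements, among them an inverted CCAAT element called the Y box. RefSeq promoters (build GRCm38.p6, 250 bases before to 50 after a gene's start) were found for 8012 of the 9810 genes tested and 11 of the 13 class II genes. The letters CTGATTGG, on either strand, occurred in promoters of 4 of these 11 genes, and in 5.50% of promoters of all genes tested, 4.45% of genes higher in B cells, 3.35% of genes lower in B cells and 4.10% of the whole table. The first is a count of genes and the others are shares of promoters. The letters were not particular to class II: 3 of 11 MHC class I genes held them, and no class I gene was called higher. The 150 bases before the start of the 4 class II genes are printed 5′ to 3′ in the gene's direction, because the 4 genes were called higher together, with the Y box in capitals. It starts 51 bases before the start in H2-Aa (chr17:34287824-34287973, minus strand), 62 in H2-Eb1 (chr17:34305717-34305866, plus strand), 103 in H2-Eb2 (chr17:34325525-34325674, plus strand) and 46 in H2-Oa (chr17:34092229-34092378, plus strand).
H2-Aa: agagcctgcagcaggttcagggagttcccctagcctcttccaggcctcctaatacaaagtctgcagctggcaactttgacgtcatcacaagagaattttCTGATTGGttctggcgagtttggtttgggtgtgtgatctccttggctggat
H2-Eb1: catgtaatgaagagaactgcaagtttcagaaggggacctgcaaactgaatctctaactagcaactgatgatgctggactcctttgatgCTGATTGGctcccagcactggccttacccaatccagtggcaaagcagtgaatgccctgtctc
H2-Eb2: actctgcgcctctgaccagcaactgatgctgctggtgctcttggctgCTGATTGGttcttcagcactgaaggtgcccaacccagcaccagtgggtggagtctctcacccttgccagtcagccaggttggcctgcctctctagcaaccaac
H2-Oa: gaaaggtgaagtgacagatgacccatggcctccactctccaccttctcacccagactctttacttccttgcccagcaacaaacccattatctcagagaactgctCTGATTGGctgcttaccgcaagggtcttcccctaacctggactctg
In all 4 the element reads in the gene's own direction. A match is a description of letters and was not tested as a binding site.

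Of 25 tested transcription factor genes of the B lineage, 15 were higher in B cells, none was lower and the median difference was 2.06. Another 6 on the array were too dim to be tested, and the limit given above for B cell markers holds here too. With no filter 16 of 31 were higher, with a median of 1.71. Ebf1, a factor that specifies B cells, read 5.85 and 4.07 in naive CD4, 4.06 and 4.14 in naive CD8 and 10.01 and 10.00 in B-cell arrays. For Ebf1 the B-cell arrays were above all 4 T cell arrays, and the difference was 5.48 ± 0.33 (SE, adjusted p = 3.86e-08). Spib, an Ets factor, read 13.09 and 12.78 in the B-cell arrays, 7.60 and 7.93 in naive CD4 and 5.31 and 7.58 in naive CD8 arrays. Spib differed by 5.83 ± 0.58 (SE, adjusted p = 5.12e-06), both B-cell arrays lying above every T cell array. Pou2af1, the B-cell coactivator of octamer-binding factors, read 9.01 and 8.98 in naive CD4, 9.61 and 9.26 in naive CD8 and 13.59 and 14.41 in B-cell arrays. For Pou2af1 the B-cell arrays were above all 4 T cell arrays, and the difference was 4.79 ± 0.82 (SE, adjusted p = 7.61e-04). Mef2c, a MADS-box factor used by B cells after receptor signals, read 13.64 and 13.71 in the B-cell arrays, 5.13 and 7.88 in naive CD4 and 5.93 and 5.96 in naive CD8 arrays, with naive CD4 array 2 higher than the other T cell arrays. Mef2c differed by 7.45 ± 1.01 (SE, adjusted p = 1.05e-04), both B-cell arrays lying above every T cell array. The B-cell arrays were above every T cell array for these 4 genes.

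Irf4, which acts in class switching and plasma cell formation, differed by 5.86 ± 0.72 (SE, adjusted p = 3.90e-05), Bcl11a by 5.15 ± 0.47 (SE, adjusted p = 2.51e-06), Hhex by 6.36 ± 0.79 (SE, adjusted p = 4.26e-05) and Bcl6, the germinal-centre repressor, by 2.66 ± 0.30 (SE, adjusted p = 1.60e-05). Bach2, which holds back plasma cell formation, was high in both lineages (10.10 and 11.05 in naive CD4, 10.81 and 10.22 in naive CD8 and 12.05 and 12.46 in B-cell arrays) and was not called (1.71 ± 0.83 SE, adjusted p = 0.198). Another of its probe sets was called higher by 3.44, with a mean of 8.47 in B cells and 5.03 in naive T cells. The remaining probe set of Bach2 was too dim to be tested. Pax5 had 2 probe sets, and the brighter was at 4.71 and 2.91 in the B-cell arrays and 1.85 to 1.88 in the T cell arrays, too dim on the whole series to be tested.

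Octamer and EBF letters were looked for in the same promoters. The octamer ATGCAAAT, on either strand, was in 2.11% of promoters of genes higher in B cells, 1.36% of those lower and 1.25% of all tested, and the EBF motif (TCCC and GGGA with 2 bases between, the same on both strands) in 1.99%, 0.993% and 0.956%. In the whole promoter table the octamer share was 1.74% and the EBF share 0.904%. Listed genes higher in B cells that hold an octamer within 150 bases before the start include Blnk (chr19:40994222-40994371, minus strand), Ccr6 (chr17:8235893-8236042, plus strand) and Vpreb3 (chr10:75948150-75948299, plus strand). Their octamer starts 130, 68 and 45 bases before the start and lies on the strand opposite to the gene, and the capitals mark it.
Blnk: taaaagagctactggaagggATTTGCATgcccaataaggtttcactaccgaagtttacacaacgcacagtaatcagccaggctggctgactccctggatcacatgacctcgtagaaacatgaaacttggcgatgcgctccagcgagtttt
Ccr6: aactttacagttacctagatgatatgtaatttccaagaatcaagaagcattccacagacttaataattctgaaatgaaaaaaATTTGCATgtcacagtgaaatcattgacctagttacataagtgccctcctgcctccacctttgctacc
Vpreb3: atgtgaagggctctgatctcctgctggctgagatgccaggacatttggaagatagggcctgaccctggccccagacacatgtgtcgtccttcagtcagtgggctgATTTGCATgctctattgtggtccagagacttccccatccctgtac
Cd22 (chr7:30879029-30879178, minus strand) holds the EBF letters 49 bases before its start, in capitals.
Cd22: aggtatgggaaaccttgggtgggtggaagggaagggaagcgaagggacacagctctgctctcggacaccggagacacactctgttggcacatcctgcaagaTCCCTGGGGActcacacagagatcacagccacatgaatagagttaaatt
Listed genes that were not called held these letters too. The octamer lay before the start of Il4ra and Egr2, and the EBF letters before that of Foxo1, Vav3, Gimap6 and Gata1. Blnk and Cd22 differed by 6.97 and 7.56. Vpreb3, a surrogate light chain relative kept by some mature B cells, read 6.47 and 5.53 in the B-cell arrays, 1.43 and 1.41 in naive CD4 and 1.42 and 1.42 in naive CD8 arrays. For Vpreb3 the B-cell arrays were above all 4 T cell arrays, and the difference was 4.58 ± 0.22 (SE, adjusted p = 2.70e-09). The octamer was in 18 of the 854 promoters of genes higher in B cells and in 128 of the 10251 promoters of genes tested.

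Of 24 tested transcription factor genes of the T lineage 9 were lower in B cells and 1 was higher, with a median difference of -0.69. Bcl11b, needed for T-cell commitment, read 13.68 and 13.03 in naive CD4, 12.90 and 12.62 in naive CD8 and 6.78 and 5.92 in B-cell arrays. Bcl11b differed by -6.71 ± 0.80 (SE, adjusted p = 3.00e-05), both B-cell arrays lying below every T cell array. Lef1, an effector of Wnt signalling in T cells, read 6.32 and 6.33 in the B-cell arrays, 9.99 and 10.26 in naive CD4 and 10.60 and 10.19 in naive CD8 arrays. For Lef1 the B-cell arrays were below all 4 T cell arrays, and the difference was -3.94 ± 0.22 (SE, adjusted p = 1.41e-08). Id2, the inhibitor of E proteins, differed by -5.54 ± 0.38 (SE, adjusted p = 1.18e-07). Eomes, a T-box factor of cytotoxic cells, read 7.56 and 6.60 in naive CD4, 11.17 and 10.94 in naive CD8 and 3.36 and 3.81 in B-cell arrays, higher in the naive CD8 than in the naive CD4 arrays, and differed by -5.48 ± 0.39 (SE, adjusted p = 1.74e-07). With all probe sets of a gene combined 5 of the 24 were lower, and Id2 was not called (-0.32).

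Several factors named for T cells were at like levels in both. Ets1 read 12.17 and 12.99 in the B-cell arrays, 13.16 and 13.14 in naive CD4 and 12.52 and 11.55 in naive CD8 arrays. Ets1 differed by -0.01 ± 1.05 (SE, adjusted p = 0.998), and the groups overlapped. Foxo1, which keeps Il7r and homing genes on, read 12.93 and 13.24 in naive CD4, 12.78 and 12.80 in naive CD8 and 12.77 and 12.91 in B-cell arrays. Foxo1 differed by -0.10 ± 0.38 (SE, adjusted p = 0.948), and the groups overlapped. The gene that was higher was Hivep3 (2.36 ± 0.68 SE, adjusted p = 0.0264), whose call was lost without B-cell array 1 or 2, naive CD4 array 2 or naive CD8 array 1 (adjusted p = 0.0777 to 0.221). Cd3d holds the TCF/LEF letters ATCAAAG 55 bases before its start (chr9:44981636-44981785, plus strand), in capitals.
Cd3d: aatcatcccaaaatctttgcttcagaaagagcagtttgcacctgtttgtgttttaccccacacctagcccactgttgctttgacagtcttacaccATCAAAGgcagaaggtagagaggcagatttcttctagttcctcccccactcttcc
On either strand these letters were in 3.35% of promoters of genes lower in B cells, 1.64% of those higher and 2.62% of all genes tested. The share in the whole promoter table was 3.73%, above that of the lower genes. Cd3d was not alone among the listed genes. The letters also lay before the start of Fyn, Trat1 and Flt3, called lower, and of Fcrl1, H2-Eb1 and H2-Eb2, called higher. In H2-Eb1 they lie on the opposite strand just before the Y box, unmarked in the sequence printed above.

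Migration receptors divided between the lineages, with 5 of 30 higher, 12 lower and a median of -0.52. Cxcr5, which draws cells to follicles, read 11.41 and 11.18 in the B-cell arrays, 3.83 and 3.69 in naive CD4 and 4.47 and 5.45 in naive CD8 arrays. Cxcr5 differed by 6.94 ± 0.30 (SE, adjusted p = 1.04e-09), both B-cell arrays lying above every T cell array. S1pr3, a sphingosine-phosphate receptor of marginal zone B cells, read 1.68 and 1.65 in naive CD4, 1.66 and 1.67 in naive CD8 and 10.46 and 10.61 in B-cell arrays. For S1pr3 the B-cell arrays were above all 4 T cell arrays, and the difference was 8.87 ± 0.16 (SE, adjusted p = 9.24e-13). Its adjusted p was the smallest among the listed genes. Cnr2, the cannabinoid receptor, differed by 4.16 ± 0.49 (SE, adjusted p = 3.03e-05) and Ccr6, the receptor for Ccl20, by 4.02 ± 0.15 (SE, adjusted p = 3.95e-10). Cxcr4 was called higher as well (2.16 ± 0.48 SE, adjusted p = 0.00517), but the naive CD8 arrays (9.31 and 8.19) overlapped the B-cell arrays (8.99 and 10.24), and the call was lost without B-cell array 2 (adjusted p = 0.126).

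On the T side, Ccr9, a gut-homing receptor, read 5.68 and 5.40 in the B-cell arrays, 10.75 and 10.72 in naive CD4 and 11.70 and 11.82 in naive CD8 arrays. Ccr9 differed by -5.71 ± 0.38 (SE, adjusted p = 8.97e-08), both B-cell arrays lying below every T cell array. Cxcr3 read 9.88 and 11.38 in naive CD4, 10.76 and 11.05 in naive CD8 and 5.63 and 5.58 in B-cell arrays. For Cxcr3 the B-cell arrays were below all 4 T cell arrays, and the difference was -5.16 ± 0.53 (SE, adjusted p = 7.20e-06). Ccr7, the lymph node homing receptor of both lineages, read 8.30 and 7.82 in the B-cell arrays, 9.75 and 9.99 in naive CD4 and 10.18 and 9.76 in naive CD8 arrays. Ccr7 differed by -1.86 ± 0.23 (SE, adjusted p = 4.90e-05), both B-cell arrays lying below every T cell array. Itgae, the alpha-E integrin, read 5.26 and 5.29 in naive CD4, 11.47 and 11.95 in naive CD8 and 3.69 and 4.93 in B-cell arrays, high in naive CD8 arrays only, and differed by -4.18 ± 0.54 (SE, adjusted p = 6.26e-05). The sphingosine-phosphate exit receptor S1pr1 read 4.70 and 5.61 in the B-cell arrays, 5.48 and 5.46 in naive CD4 and 4.71 and 4.72 in naive CD8 arrays. S1pr1 differed by 0.06 ± 0.21 (SE, adjusted p = 0.936), and the groups overlapped.

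Receptors for survival signals differed in both directions. Tnfrsf13c, the BAFF receptor, read 4.93 and 5.04 in naive CD4, 6.92 and 5.11 in naive CD8 and 14.01 and 14.63 in B-cell arrays. Tnfrsf13c differed by 8.82 ± 0.56 (SE, adjusted p = 5.53e-08), both B-cell arrays lying above every T cell array. Cd40, through which T cells help B cells, read 11.88 and 11.96 in the B-cell arrays, 5.61 and 5.57 in naive CD4 and 6.02 and 6.69 in naive CD8 arrays. For Cd40 the B-cell arrays were above all 4 T cell arrays, and the difference was 5.95 ± 0.52 (SE, adjusted p = 1.55e-06). Tnfrsf13b, which encodes TACI, differed by 4.10 ± 0.78 (SE, adjusted p = 0.00186). Il7r, the IL-7 receptor alpha chain, read 13.69 and 13.80 in naive CD4, 13.59 and 13.85 in naive CD8 and 6.44 and 6.75 in B-cell arrays. Il7r differed by -7.14 ± 0.57 (SE, adjusted p = 5.60e-07), both B-cell arrays lying below every T cell array. Cd27, a costimulatory receptor of naive T cells and memory B cells, read 3.36 and 3.01 in the B-cell arrays, 9.34 and 9.63 in naive CD4 and 9.53 and 9.72 in naive CD8 arrays. For Cd27 the B-cell arrays were below all 4 T cell arrays, and the difference was -6.37 ± 0.26 (SE, adjusted p = 7.23e-10). Tnfrsf25, the death receptor for Tl1a, differed by -5.39 ± 0.25 (SE, adjusted p = 2.10e-09). Over the lists, 4 of 23 tested TNF ligands and receptors were higher and 8 lower, and 3 of 30 cytokine receptors were higher and 11 lower. Of all genes tested 8.26% were higher and 7.78% lower, so the share of cytokine receptors that were higher was near that of all genes.

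Il18r1, the IL-18 receptor chain, read 10.11 and 10.00 in naive CD4, 10.31 and 10.32 in naive CD8 and 3.08 and 2.05 in B-cell arrays. Il18r1 differed by -7.62 ± 0.83 (SE, adjusted p = 1.28e-05), both B-cell arrays lying below every T cell array. Il6st, the shared chain gp130, differed by -4.63 ± 0.60 (SE, adjusted p = 7.02e-05) and Il2rb by -3.02 ± 0.45 (SE, adjusted p = 2.25e-04). In the other direction went Il10ra (3.65 ± 0.28 SE, adjusted p = 4.11e-07) and Il5ra, the IL-5 receptor chain of B-1 cells. Il5ra read 7.05 and 7.82 in the B-cell arrays, 3.59 and 3.57 in naive CD4 and 3.56 and 3.59 in naive CD8 arrays. For Il5ra the B-cell arrays were above all 4 T cell arrays, and the difference was 3.86 ± 0.20 (SE, adjusted p = 9.21e-09). The anti-apoptotic gene Bcl2 varied between arrays of 1 type (11.71 and 9.75 in naive CD4, 11.10 and 9.87 in naive CD8 and 11.64 and 12.32 in B-cell arrays) and was not called (1.37 ± 1.46 SE, adjusted p = 0.636), and Mcl1 was at 14.60 or more in all 6 arrays. Of 12 tested Bcl2-family genes Bmf (2.46 ± 0.31 SE, adjusted p = 4.90e-05) and Bid (1.99 ± 0.27 SE, adjusted p = 1.16e-04), both pro-apoptotic, were higher. Bid lost its call with all its probe sets combined (0.92).

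**Figure D4:**
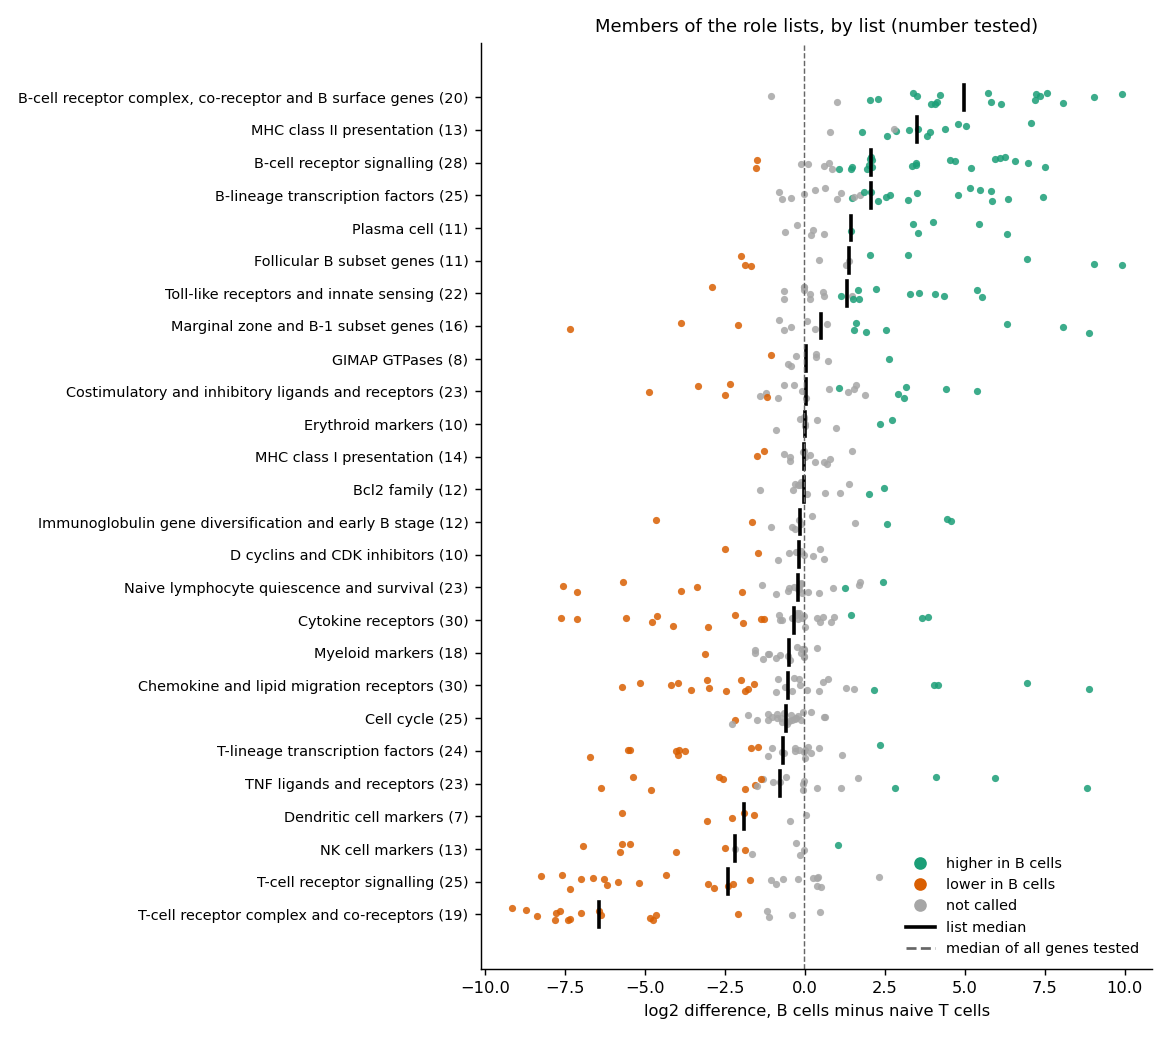
Log2 difference between B cells and naive T cells (horizontal axis) of every tested member of 26 role and marker lists, 1 point a gene, with the list median as a black bar and the median of all 9810 genes, -0.03, as a dashed line. The B cell, T cell and platelet marker lists, the list of Y-linked genes with Xist and the list of paralogue pairs are not drawn. The medians drawn run from 4.96 for the B-cell receptor list to -6.45 for the T-cell receptor list.

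Innate sensing was higher in B cells for 11 of 22 tested genes and lower for 1, with a median difference of 1.30. Tlr4, the receptor for lipopolysaccharide, read 8.40 and 8.70 in the B-cell arrays, 2.92 and 3.36 in naive CD4 and 2.87 and 2.88 in naive CD8 arrays. Tlr4 differed by 5.54 ± 0.52 (SE, adjusted p = 3.26e-06), both B-cell arrays lying above every T cell array. Another tested probe set of Tlr4 was not called (0.31), with means of 3.21 in B cells and 2.91 in naive T cells. The rest were too dim to be tested. The partner of Tlr4, Ly96, which encodes MD-2, read 4.29 and 5.35 in naive CD4, 4.94 and 3.69 in naive CD8 and 6.29 and 7.27 in B-cell arrays. For Ly96 the B-cell arrays were above all 4 T cell arrays, and the difference was 2.21 ± 0.37 (SE, adjusted p = 7.08e-04). The call of Ly96 was lost with only the 6 arrays fitted (adjusted p = 0.0615). The related pair Cd180 and Ly86 (RP105 and MD-1), which tunes that response in B cells, differed by 1.14 ± 0.19 (SE, adjusted p = 5.87e-04) and 4.36 ± 0.89 (SE, adjusted p = 0.00295). Without B-cell array 1 the difference of Cd180 was 0.94, under 2-fold, and the call was lost. Unc93b1, which carries nucleic-acid receptors to endosomes, differed by 3.56 ± 0.55 (SE, adjusted p = 3.24e-04). Tlr3 read 7.68 and 7.89 in the B-cell arrays, 3.57 and 3.52 in naive CD4 and 8.70 and 8.54 in naive CD8 arrays, so that the naive CD8 arrays were above the B-cell arrays and the naive CD4 arrays far below them, and the difference was 1.70 ± 0.23 (SE, adjusted p = 8.20e-05). With all probe sets combined it was 0.98 for Tlr3, under the 2-fold needed. Ifih1, the sensor MDA5, was the gene that was lower (-2.90 ± 0.36 SE, adjusted p = 4.65e-05).

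Of 11 tested plasma cell genes 6 were higher in B cells and none was lower, and 5 more on the array were too dim to be tested. Mzb1, a chaperone of marginal zone B and plasma cells, read 3.05 and 3.03 in naive CD4, 3.03 and 3.11 in naive CD8 and 9.44 and 9.32 in B-cell arrays. Mzb1 differed by 6.33 ± 0.16 (SE, adjusted p = 1.02e-11), both B-cell arrays lying above every T cell array. Sdc1, which encodes syndecan-1 (CD138), read 9.69 and 9.30 in the B-cell arrays, 3.85 and 3.81 in naive CD4 and 3.76 and 4.84 in naive CD8 arrays. For Sdc1 the B-cell arrays were above all 4 T cell arrays, and the difference was 5.43 ± 0.35 (SE, adjusted p = 6.67e-08). Xbp1, the factor of the secretory programme, differed by 1.43 ± 0.21 (SE, adjusted p = 2.13e-04). Prdm1, which encodes Blimp-1, read 3.70 and 4.29 in naive CD4, 2.69 and 2.69 in naive CD8 and 3.04 and 3.12 in B-cell arrays and was not called (-0.26 ± 0.32 SE, adjusted p = 0.693). Jchain, the joining chain, read 10.94 and 11.29 in the B-cell arrays, 9.80 and 6.65 in naive CD4 and 7.87 and 6.00 in naive CD8 arrays. Jchain differed by 3.54 ± 1.00 (SE, adjusted p = 0.0238), both B-cell arrays lying above every T cell array. Naive CD4 array 1 was high for Jchain, and the call was lost without naive CD4 array 2, naive CD8 array 2 or either B-cell array (adjusted p = 0.0693 to 0.154).

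The subset lists did not point one way. Marginal zone and B-1 genes were higher in 7 of 16 tests and lower in 3, and follicular genes in 5 of 11 and 3, with S1pr3 and Cr2 in the first and Fcmr, Fcer2a and Cxcr5 in the second. The lower members of the first were Cd5, Ctla4 and Spn, which T cells also express. Ctla4 lost its call without B-cell array 1 or 2 (adjusted p = 0.0732 to 0.0832). Of 12 tested genes of immunoglobulin diversification and the early B stage 3 were higher, 2 lower and 7 not called, with a median difference of -0.16. A further 5 were not tested. Among genes of early B cells, Cd93 read 3.55 and 4.34 in naive CD4, 4.07 and 4.37 in naive CD8 and 8.87 and 8.16 in B-cell arrays. For Cd93 the B-cell arrays were above all 4 T cell arrays, and the difference was 4.43 ± 0.59 (SE, adjusted p = 9.17e-05). Another probe set of Cd93 was called higher by 1.68, and the rest were too dim to be tested. Dntt, the terminal transferase of developing lymphocytes, averaged 8.88 ± 0.18 (SD, n = 2) in naive CD4, 7.92 ± 1.11 in naive CD8 and 3.74 ± 0.00 in B-cell arrays. Dntt differed by -4.66 ± 0.34 (SE, adjusted p = 2.48e-07), both B-cell arrays lying below every T cell array.

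Of 23 tested quiescence genes 15 were not called, 2 were higher and 6 lower. The share higher was near the 8.26% of all genes tested, of which 7.78% were lower. Btg1 read 14.44 and 14.68 in the B-cell arrays, 14.74 and 14.54 in naive CD4 and 14.13 and 14.46 in naive CD8 arrays. Btg1 differed by 0.09 ± 0.21 (SE, adjusted p = 0.881), and the groups overlapped. Igfbp4 read 12.86 and 12.89 in naive CD4, 12.10 and 11.92 in naive CD8 and 7.04 and 6.46 in B-cell arrays. Igfbp4 differed by -5.69 ± 0.22 (SE, adjusted p = 4.34e-10), both B-cell arrays lying below every T cell array. Dapl1 differed by -7.57 ± 0.40 (SE, adjusted p = 9.21e-09). Foxp1, a factor that holds lymphocytes quiet, was called higher (2.45 ± 0.68 SE, adjusted p = 0.0210), and the call was lost without naive CD4 array 1, naive CD8 array 2 or either B-cell array (adjusted p = 0.0628 to 0.133). Of 25 cell cycle genes 24 were not called and Ccnb2 was lower, a call lost without either naive CD4 array or either B-cell array (adjusted p = 0.0540 to 0.161). Mki67 read 10.55 and 10.27 in the B-cell arrays, 12.67 and 11.20 in naive CD4 and 12.56 and 11.23 in naive CD8 arrays, with the naive arrays numbered 1 above those numbered 2, and differed by -1.51 ± 0.62 (SE, adjusted p = 0.124). Without naive CD8 array 2, 5 of the 25 were lower, without both naive arrays numbered 2, 7, and without both numbered 1, 1.

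Markers of other cells were counted beside the shares over all genes tested, 8.26% higher and 7.78% lower. With all arrays, the myeloid and platelet lists did not exceed these shares. Of 13 tested NK markers 7 were lower in B cells and 1, Klrb1a, was higher. Klrb1a was under 2-fold, and no NK marker was called higher, without B-cell array 2 (0.96) or after quantile normalization (0.92). Nkg7, a gene of cytotoxic granules, was among the lower and read 5.75 and 7.95 in naive CD4, 12.15 and 12.03 in naive CD8 and 2.97 and 2.11 in B-cell arrays, highest in naive CD8. For Nkg7 the B-cell arrays were below all 4 T cell arrays, and the difference was -6.93 ± 0.68 (SE, adjusted p = 4.83e-06). The myeloid list had 1 of 18 lower, Fcgr3 (-3.14 ± 0.42 SE, adjusted p = 9.55e-05), and 6 without naive CD4 array 1. Of 7 dendritic cell genes 5 were lower, and 2 without B-cell array 2. Erythroid genes had 2 of 10 higher, Alas2 and Slc4a1. Alas2, of haem synthesis, read 4.47 and 4.32 in the B-cell arrays, 1.57 and 2.07 in naive CD4 and 1.55 and 1.57 in naive CD8 arrays. Alas2 differed by 2.71 ± 0.30 (SE, adjusted p = 1.60e-05), both B-cell arrays lying above every T cell array. Slc4a1, an anion exchanger of red cells, read 4.39 and 4.79 in naive CD4, 4.29 and 4.39 in naive CD8 and 7.77 and 5.84 in B-cell arrays. For Slc4a1 the B-cell arrays were above all 4 T cell arrays, and the difference was 2.34 ± 0.45 (SE, adjusted p = 0.00193). With all its probe sets combined Slc4a1 differed by 0.01 (adjusted p = 0.996), and its call was also lost without B-cell array 1 (adjusted p = 0.0517) and with only the 6 arrays fitted (adjusted p = 0.0577). No tested platelet gene was called (0 of 7). The part of such cells in the sorted samples was not tested.

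The largest differences included genes outside the lists. Srpk3, a kinase of splicing factors best known from muscle, read 13.47 and 12.99 in the B-cell arrays, 1.63 and 1.66 in naive CD4 and 2.32 and 3.15 in naive CD8 arrays. Srpk3 differed by 11.04 ± 0.68 (SE, adjusted p = 3.88e-08), both B-cell arrays lying above every T cell array. It was the largest difference in favour of B cells. Scd1, the stearoyl-CoA desaturase that makes oleate, read 2.61 and 2.57 in naive CD4, 6.74 and 2.59 in naive CD8 and 13.93 and 14.12 in B-cell arrays, with naive CD8 array 1 above the other T cell arrays. For Scd1 the B-cell arrays were above all 4 T cell arrays, and the difference was 10.40 ± 1.15 (SE, adjusted p = 1.53e-05). Pxdc1, Lyl1, a basic helix-loop-helix factor, Dennd5b and Bcar3 followed, with differences of 8.94 ± 0.33, 8.72 ± 0.49, 7.85 ± 0.34 and 7.28 ± 0.24 (SE). Sema4f, a semaphorin, read 2.62 and 2.79 in the B-cell arrays, 11.61 and 12.09 in naive CD4 and 12.09 and 12.52 in naive CD8 arrays. Sema4f differed by -9.37 ± 0.79 (SE, adjusted p = 1.10e-06), both B-cell arrays lying below every T cell array. It was the largest in favour of T cells. Camk4, a calcium-dependent kinase of T cells, read 11.50 and 12.00 in naive CD4, 10.90 and 11.20 in naive CD8 and 2.75 and 2.35 in B-cell arrays. For Camk4 the B-cell arrays were below all 4 T cell arrays, and the difference was -8.85 ± 0.24 (SE, adjusted p = 1.89e-11). Its other probe sets, all too dim to be tested, differed by -1.06 to -0.03. F2r, the thrombin receptor, Ppm1h, Btbd11, Lypd6b, Iqgap2, Tdrp and Prkch, protein kinase C eta, gave -8.47 ± 0.52, -8.23 ± 0.58, -8.56 ± 0.68, -7.92 ± 0.53, -7.83 ± 0.23, -7.78 ± 0.49 and -8.11 ± 0.34 (SE).

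Across the 10 cell types, B cells had the highest mean for 392 of the 810 higher genes (48.4%). Granulocytes were highest for 96 of them, monocytes for 85, erythrocytes for 83 and LT-HSC (long-term hematopoietic stem cells) for 70. For 224 of the 810 no type outside the comparison came within 2-fold of B cells, and for 81 all 7 other types were under a log2 value of 5. Lyl1 was at 10.61 in B cells and also at 8.64 in granulocytes and 10.06 in erythrocytes, Mef2c at 13.68 and at 12.24 in LT-HSC, and Tnfrsf13c at 14.32 and at 10.73 in LT-HSC. S1pr3, Fcmr and Cr2, by contrast, were at 2.61, 4.04 and 3.55 in the highest of the 7 other types.

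Of the 763 lower genes, naive CD8 T cells were highest for 158, NK cells for 107, granulocytes for 101 and naive CD4 T cells for 100. B cells were under a log2 value of 5 for 327 of them and at 5 or above for 436. F2r reached 14.20 in LT-HSC and 13.60 in NK cells, Icos 13.68 in activated CD4 T cells and Sema4f 13.36 in granulocytes. Cd3g stayed at 4.30 or below in every type that is no T cell.

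**Figure D5:**
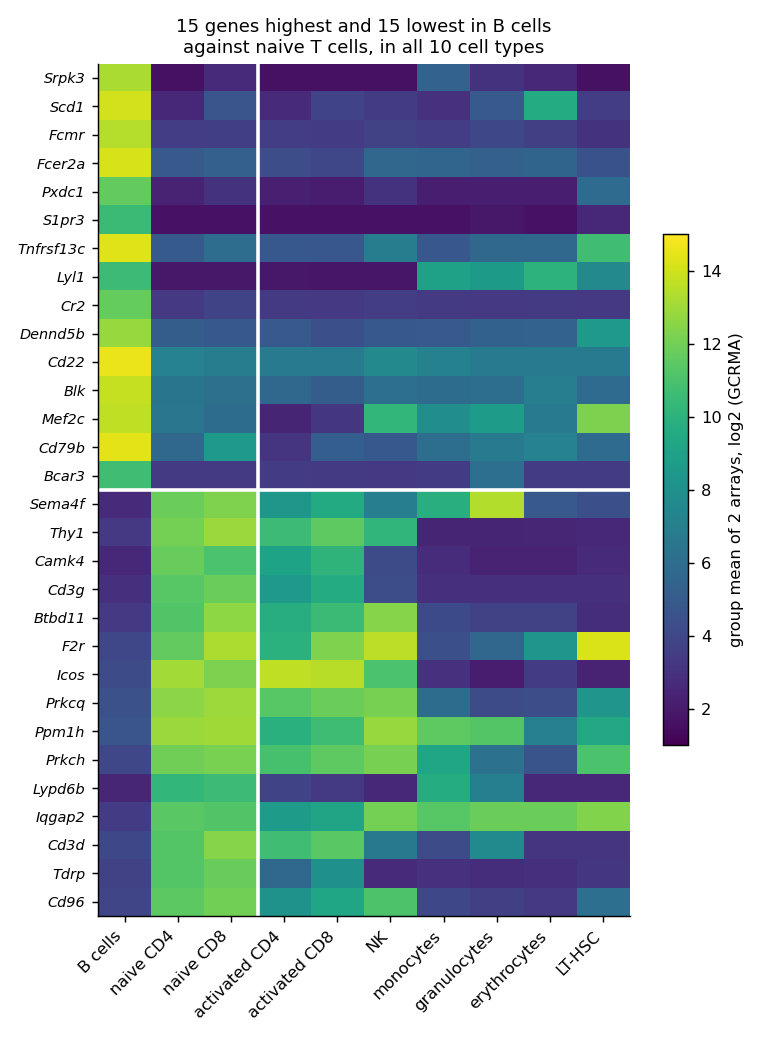
Mean log2 expression (colour scale, 2 arrays a type) in all 10 cell types of the 15 genes with the largest differences in favour of B cells (top) and of naive T cells (bottom), to be read along rows. The first 3 columns are the groups compared, and the others show that genes such as Mef2c, Lyl1, F2r and Iqgap2 were also high outside the lymphocytes compared while S1pr3, Fcmr and Cr2 were high in B cells alone among these types.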

How the data were processed

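The deposited log2 values of 45101 probe sets were used as given. Per the submitters' processing notes, the authors ran GCRMA on the Affymetrix arrays to get these log2 values. Version and settings: not given in the sources used here. GCRMA as usually run corrects background by probe sequence, so low values gather at a floor, and normalizes arrays together, which can hide a shift of most genes. Detection calls were not used here, values near 2 to 3 are close to the floor of these data, and a value is compared only within its probe set. Of the probe sets, 34945 had 1 gene symbol, 932 had several and 9160 were not listed in the annotation; a gene was represented by its probe set with the highest mean over the 20 arrays, and tested if at least 2 arrays exceeded 5.

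Means of all 10 cell types were fitted with limma 3.58.1 (lmFit and eBayes, R 4.3.3, 10 residual degrees of freedom), with B cells set against the mean of the naive groups. Tested on simulated data of the 9810 genes of this comparison, the fit recovered 57.5% of genes changed by 1.5, 82.5% of those changed by 2 and 100% of those changed by 3 on the log2 scale. Of genes changed by 1, the size needed for a call, it recovered 15.0%. The number of arrays (2 a type) limits the precision. Nothing in the labels separates the pools by animal, so p-values measure only the spread between these arrays. The members and the 31 gene lists were chosen with earlier results of these data known. The text names members of those lists and the 15 genes with the largest differences on each side among called genes without overlap, and other genes are marked as chosen after their values were seen. Of 561 listed genes 44 had no probe set of their own and were not analysed here. Promoter sequences came from RefSeq (GRCm38.p6). The alternatives tried were other scalings, filters, probe set choices, spread estimates, fitted arrays and left-out arrays.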

Additional observations from a re-analysis of the deposited data

Results flagged for a closer look

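For 13 named genes the difference from B cells was not the same against naive CD4 and naive CD8 T cells, by the limma test of naive CD4 minus naive CD8 (adjusted p under 0.05 over the genes tested). Both differences share the B-cell arrays. The co-receptor genes Cd8a (-8.36) and Cd8b1 (-9.18) were higher in naive CD8 arrays, as were Itgae (-6.43), Tlr3 (-5.08), Il2rb (-2.76), Cxcr4 (-2.59) and Prkcz (-1.67). Cytotoxic genes ran the same way: Gzma gave -7.20, Nkg7 -5.24 and Eomes -3.97, beside NK cell markers that averaged 7.69 and 6.90 in the naive CD8 arrays and 5.29 and 5.33 in the naive CD4 arrays, and their part in these values was not tested. Higher in naive CD4 arrays were Ctla4 (3.14), H2-Eb2 (2.28) and Tnfrsf25 (1.40). Each group held 2 arrays, too few to look for single arrays that stand apart by a rule.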

How the results depend on the processing

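The number of genes called, 1573 in all, lay between 1148 and 1558 on leaving out 1 array, lowest without B-cell array 2, and between 1303 and 1856 over the other scalings, filters, probe set choices, spread estimates and fitted arrays. Requiring at least 4-fold left 874 genes, 450 higher and 424 lower, and requiring a call against each naive group left 1045, of which 496 were lower. After quantile normalization, which moved the median of all genes to -0.10, 44.6% of called genes were higher in B cells, against 51.5%. Of 140 named genes that were called, 114 kept the call in every setting that tested them, 26 lost it in at least 1 and 0 reversed. Of the 20 settings, some left out a gene through their filter, so that Cd79a and S1pr3 were tested in 19 and Prkcz in 18. Of 23 named genes that were not called, 10 were called in at least 1 setting, among them Bach2, Tec and Rasgrp1 with only the 6 arrays fitted. Other probe sets of named called genes were called the same way in 62 of 82 tests and the opposite way in 0.

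B-cell arrays did not deviate together with naive arrays of the same replicate number (correlations -0.186 and -0.178), whereas the naive groups had a correlation of 0.123 and shared features by number, such as Eif2s3y and Mki67. The numbers were therefore not taken as pairing across the 3 groups. With the replicate number as a block 1567 genes were called, 1545 of them also called without it. Crossed B-cell numbers, an alternative chosen after seeing the data, gave 1565. With 2 arrays a type, many small differences were not detectable: in the simulated data of this comparison 57.5% of genes changed by 1.5 on the log2 scale were recovered.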

Other observations

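Families outside the lists, chosen after their values were seen, also had members on both sides. Ms4a1 was higher in B cells by 7.19, whereas its relatives Ms4a4b, Ms4a4d, Ms4a6b and Ms4a6d, tetraspanning membrane proteins of the same gene cluster, were lower, with differences of -6.49 ± 0.73, -3.10 ± 0.54, -3.69 ± 0.48 and -4.03 ± 0.90 (SE). Ms4a4b read 7.61 and 7.20 in the B-cell arrays, 13.78 and 14.21 in naive CD4 and 13.99 and 13.60 in naive CD8 arrays. In these 4 the B-cell arrays lay below every T cell array. With all its probe sets combined Ms4a6d differed by -0.64 (adjusted p = 0.468), and its call was also lost without B-cell array 1 (adjusted p = 0.0723). Ms4a4d lost its call with only the 6 arrays fitted (adjusted p = 0.0546).

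Among protein kinase C genes, Prkcb, Prkcd and Prkce were higher in B cells by 2.00 ± 0.39, 2.58 ± 0.34 and 2.78 ± 0.19 (SE). Prkch, Prkcq and Prkcz were lower, with differences of -8.11 ± 0.34, -8.25 ± 0.33 and -2.60 ± 0.33 (SE). Prkch read 11.61 and 12.32 in naive CD4, 12.17 and 12.18 in naive CD8 and 3.29 and 4.63 in B-cell arrays. In none of the 6 did the B-cell arrays overlap those of T cells.

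Enzymes of fatty acid desaturation and elongation did not move together. Scd1 was higher in B cells, while Fads1, a desaturase of polyunsaturated fatty acids, read 2.60 and 2.75 in the B-cell arrays, 4.75 and 7.59 in naive CD4 and 5.16 and 7.52 in naive CD8 arrays, a difference of -3.58 ± 0.70 (SE, adjusted p = 0.00227), and the elongase genes Elovl6 and Elovl7 differed by -3.34 ± 0.40 and -2.64 ± 0.52 (SE). With all probe sets of a gene combined Elovl6 differed by -0.35 and Elovl7 by -0.91, and neither was called. Elovl7 also lost its call without B-cell array 1 (adjusted p = 0.0600), and Elovl7 and Fads1 with only the 6 arrays fitted (adjusted p = 0.0694 and 0.0917).

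Srpk3, the gene with the largest difference, has a relative that ran the other way: Srpk1, a widely expressed kinase of splicing factors, read 11.11 and 11.37 in naive CD4, 11.37 and 11.33 in naive CD8 and 9.82 and 9.66 in B-cell arrays, a difference of -1.56 ± 0.17 (SE, adjusted p = 1.73e-05).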
